A study of Mus musculus with 10 samples.

Results

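The 10 transcription factor genes *Cebpa*, *Cebpb*, *Cebpe*, *Spi1*, *Irf8*, *Ebf1*, *Fli1*, *Erg*, *Runx1* and *Ikzf1*, taken as a named group of myeloid, lymphoid and stem-cell regulators, were examined for peaks of H3K27me3 and of Mtf2. They are 10 of the 22367 protein-coding genes of GENCODE M1 on NCBIM37 (mm9). All 10 were matched, *Spi1* under its older name Sfpi1. For each gene, peaks were collected within 5 kb of any transcription start site (TSS), in the gene body, and within 100 kb of the gene. TSS lying within 1 kb of each other were joined into 1 promoter, which gave 25 promoters.

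The study asked how loss of Mtf2, an accessory protein of the Polycomb complex PRC2, changes H3K27me3 in developing red cells. Fetal liver (FL) cells of E14.5 embryos on a C57Bl/6 background were separated on CD71 and Ter119, giving pro-erythroblasts (CD71+Ter119-/lo) and erythroblasts (CD71+Ter119+). The embryos were either WT or Mtf2-null (Pcl2 -/- in the labels, from gene-targeted ES cells), so every cell of a null embryo lacks the gene, not only the red cells. H3K27me3 was profiled by ChIP-seq in both genotypes and Mtf2 in WT alone, with 500000 cells per sample and an IgG control for each fraction and genotype. Each condition had 1 library here, so no spread between replicates and no test between conditions can be given, and every count below is a description.

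H3K27me3 is the histone mark written by PRC2, and it lies over genes that a cell keeps silent, most often at promoters rich in CpG dinucleotides. The genes described here direct blood cells away from the red lineage or hold them in a stem or progenitor state. *Cebpa*, *Cebpb* and *Cebpe* act in granulocytes and macrophages, *Spi1* and *Irf8* in myeloid cells and B cells, *Ebf1* and *Ikzf1* in lymphocytes, and *Fli1*, *Erg* and *Runx1* in stem cells and megakaryocytes.

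DNA at or beside peaks, and at 2 promoters without one, is shown first, because 3 of the 4 marked promoters were rich in CpG dinucleotides. Each sequence is read from NCBIM37, 5′ to 3′ on the strand of the gene, with every CpG in capitals. The first 2 are the 250 bases upstream of the TSS of *Cebpa* (chr7:35904062-35904311, plus strand, 22 CpG) and *Cebpb* (chr2:167514165-167514414, plus strand, 41 CpG), which had an H3K27me3 peak in WT CD71+Ter119+ cells. These peaks began at -196 and -347 bp and lay mostly downstream of the TSS, so the start of the *Cebpa* stretch is outside its peak.
Cebpa upstream: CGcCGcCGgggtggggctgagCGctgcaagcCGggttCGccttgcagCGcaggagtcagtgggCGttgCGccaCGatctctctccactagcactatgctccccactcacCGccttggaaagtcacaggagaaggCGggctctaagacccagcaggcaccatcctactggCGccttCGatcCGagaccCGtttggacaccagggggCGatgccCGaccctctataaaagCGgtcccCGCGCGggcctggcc
Cebpb upstream: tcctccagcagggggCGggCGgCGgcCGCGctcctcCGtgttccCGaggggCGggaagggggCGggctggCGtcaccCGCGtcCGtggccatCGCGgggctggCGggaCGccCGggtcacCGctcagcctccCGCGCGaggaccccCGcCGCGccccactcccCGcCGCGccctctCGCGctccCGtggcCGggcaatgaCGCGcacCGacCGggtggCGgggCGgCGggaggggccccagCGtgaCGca
The next is 300 bases around the summit of the main *Ebf1* peak of the same library, in an intron (chr11:44431838-44432137, plus strand, 34 CpG).
Ebf1 summit: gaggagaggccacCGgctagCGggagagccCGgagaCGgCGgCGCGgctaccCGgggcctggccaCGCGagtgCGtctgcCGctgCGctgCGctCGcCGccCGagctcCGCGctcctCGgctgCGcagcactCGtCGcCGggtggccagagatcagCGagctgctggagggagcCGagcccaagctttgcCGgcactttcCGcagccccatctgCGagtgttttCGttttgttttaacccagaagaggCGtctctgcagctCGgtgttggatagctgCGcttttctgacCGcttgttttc
As a contrast, the 250 bases upstream of the first *Irf8* promoter (chr8:123260008-123260257, plus strand, 29 CpG) and of the second *Runx1* promoter (chr16:92697574-92697823, minus strand, 27 CpG) are as rich in CpG but had no peak within 5 kb in any of the 6 lists.
Irf8 upstream: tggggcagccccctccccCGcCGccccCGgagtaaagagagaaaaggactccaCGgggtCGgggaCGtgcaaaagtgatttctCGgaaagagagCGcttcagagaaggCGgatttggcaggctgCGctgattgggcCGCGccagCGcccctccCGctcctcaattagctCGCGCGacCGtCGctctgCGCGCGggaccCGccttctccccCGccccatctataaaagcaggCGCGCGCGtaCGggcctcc
Runx1 upstream: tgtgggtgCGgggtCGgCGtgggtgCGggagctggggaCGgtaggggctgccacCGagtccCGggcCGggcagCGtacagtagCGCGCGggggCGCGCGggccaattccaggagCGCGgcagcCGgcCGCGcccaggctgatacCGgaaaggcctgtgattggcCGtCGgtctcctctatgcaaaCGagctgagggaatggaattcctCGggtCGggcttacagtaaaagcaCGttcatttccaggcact
The last 2 lie under Mtf2 peaks of WT CD71+Ter119-/lo cells, namely the 250 bases upstream of the first *Spi1* TSS (chr2:90922297-90922546, plus strand, 3 CpG) and 300 bases around the H3K27me3 summit in an *Erg* intron (chr16:95731284-95731583, minus strand, 18 CpG).
Spi1 upstream: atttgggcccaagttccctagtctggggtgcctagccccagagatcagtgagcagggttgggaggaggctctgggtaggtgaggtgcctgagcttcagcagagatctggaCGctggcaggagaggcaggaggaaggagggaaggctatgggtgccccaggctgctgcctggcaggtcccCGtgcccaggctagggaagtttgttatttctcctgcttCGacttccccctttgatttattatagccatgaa
Erg intron: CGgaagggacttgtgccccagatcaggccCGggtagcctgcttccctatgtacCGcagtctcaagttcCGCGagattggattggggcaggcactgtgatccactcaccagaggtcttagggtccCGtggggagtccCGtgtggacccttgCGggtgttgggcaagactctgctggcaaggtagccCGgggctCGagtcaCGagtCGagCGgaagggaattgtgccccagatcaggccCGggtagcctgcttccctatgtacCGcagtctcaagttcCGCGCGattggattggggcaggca

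The 6 lists differed in depth and quality, and this bears on every absence below. They held between 1407 peaks (Mtf2-null CD71+Ter119-/lo H3K27me3) and 28918 peaks (WT CD71+Ter119-/lo Mtf2), from between 15669899 and 67169672 unique tags (distinct aligned reads). The Mtf2-null CD71+Ter119-/lo list carried a false discovery rate (FDR) of 100% at every peak. In WT CD71+Ter119-/lo cells 1 of 4992 H3K27me3 peaks was at or below 5%, against 1312 of 4490 in WT CD71+Ter119+ cells, and no peak of the WT CD71+Ter119+ Mtf2 list was at or below 5%. The identity of the cells could not be checked, since these files hold no expression and most marker genes of any cell type had no peak. None of 10 erythroid marker genes had a peak within 5 kb in any list. Of 21 markers of other cell types, *Itga2b* had a WT CD71+Ter119-/lo H3K27me3 peak, *Emr1* an Mtf2-null CD71+Ter119-/lo H3K27me3 peak and *Afp* a WT CD71+Ter119-/lo Mtf2 peak, and the rest had none.

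H3K27me3 covered the TSS of 4 of the 10 genes in WT CD71+Ter119+ erythroblasts, namely *Cebpa*, *Cebpb*, *Ebf1* and *Fli1*, and of none in the other 3 H3K27me3 lists. Within 5 kb of a TSS, the same 4 genes had a peak in WT CD71+Ter119+ cells, against 11.5% of all protein-coding genes. The members were chosen with earlier results of these data known, so the difference from that share is no evidence about the group. No member had a peak within 5 kb in WT CD71+Ter119-/lo cells (3.28% of all genes), in Mtf2-null CD71+Ter119-/lo cells (1.27%) or in Mtf2-null CD71+Ter119+ cells (1.63%). All 4 therefore counted among the genes with a WT and no Mtf2-null peak in CD71+Ter119+ cells, a class that held 11.4% of all genes. In CD71+Ter119-/lo cells that class held none of the 10 and 3.11% of all genes. Absence of a peak is absence of a call. Fewer cells with the mark, less mark per cell and a property of the library cannot be told apart in these bulk samples.

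**Figure D1:**
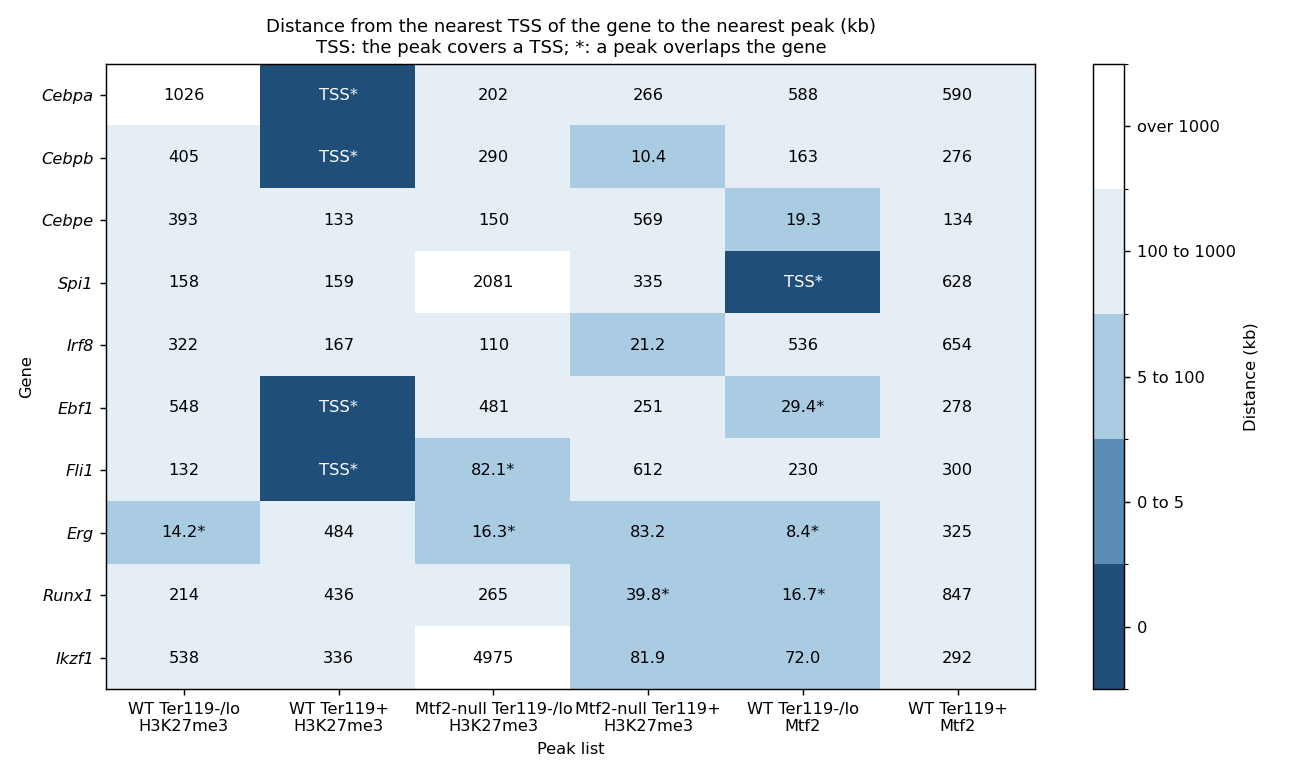
Each cell gives the distance in kb from the nearest TSS of a gene (rows) to the nearest peak of a list (columns), with darker blue for nearer peaks. Peaks that cover a TSS stand at *Cebpa*, *Cebpb*, *Ebf1* and *Fli1* in the WT CD71+Ter119+ H3K27me3 column and at *Spi1* in the WT CD71+Ter119-/lo Mtf2 column, and no other cell is nearer than 8.4 kb.

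*Cebpa*, the factor that commits progenitors to the granulocyte and monocyte lineages, carried a peak of 1790 bp at chr7:35904116-35905905 in WT CD71+Ter119+ cells. It held 79 tags at a fold enrichment over the IgG background of 10.1 and an FDR of 2.09%. It reached from -196 to 1593 bp of the single TSS, with its summit in the coding exon at 607 bp, and covered 60.5% of the gene. The nearest peak of the other 5 lists lay between 202 kb and 1026 kb from the TSS.

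*Cebpb*, which drives granulocyte production under stress and macrophage genes, had the highest score of the 4. Its peak at chr2:167514068-167515974 was 1907 bp long and held 95 tags at a fold of 10.8 and an FDR of 2.52%. It covered the whole of this short gene of 1504 bp. The summit lay 1044 bp downstream of the TSS in the untranslated part of the exon. That is nearer to the start of a *Tmem189* transcript (summit at -0.137 kb from it), which overlaps *Cebpb* on the opposite strand, so the peak cannot be assigned to *Cebpb* alone. In Mtf2-null CD71+Ter119+ cells 2 peaks lay upstream, with summits at -18.9 and -11.0 kb, 43 and 48 tags and folds of 4.41 and 6.37.

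*Fli1*, an ETS factor of stem cells and megakaryocytes, had a peak of 1751 bp at its only annotated TSS (chr9:32347488-32349238), from -264 to 1486 bp, with the summit at 451 bp, in the first intron. It held 76 tags, close to the 79 at *Cebpa* over nearly the same length. Its fold enrichment was 5.71 against 10.1 at *Cebpa*, and its FDR was 11.6%. By score (−10 times log10 of the p of the peak) it ranked 1941 of 4490, against 335 for *Cebpa* and 238 for *Cebpb*. At a score of at least 100, or an FDR of at most 5%, the *Fli1* peak dropped out and 3 genes were left.

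*Ebf1*, the factor that specifies B cells, had 2 neighbouring peaks at the start of a gene of 391 kb. The first, at chr11:44431405-44433126, was 1722 bp long with 63 tags, a fold of 10.3 and an FDR of 3.23%. The second, at chr11:44433137-44433914, was 778 bp long with 26 tags, a fold of 7.86 and an FDR of 23.8%. A gap of 10 bp parted them, so that together they spanned 2510 bp with 89 tags. Both summits were intronic, and the first lay 307 bp downstream of the nearest TSS.

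Narrowing the window to 1 kb left the same 4 genes in WT CD71+Ter119+ cells (9.32% of all genes) and none in WT CD71+Ter119-/lo (1.31%), Mtf2-null CD71+Ter119-/lo (0.344%) and Mtf2-null CD71+Ter119+ cells (0.259%). Of the 25 promoters, 4 had an H3K27me3 peak within 1 kb in WT CD71+Ter119+ cells and none had one in the other 3 H3K27me3 lists. Among all annotated TSS, counted singly and not joined into promoters, 4606 of 69963 had such a peak in WT CD71+Ter119+ cells. For *Cebpa*, *Cebpb* and *Fli1* the annotation has 1 promoter, so no choice between promoters could be seen. *Ebf1* has 3. The first was marked, with 2 of its 3 TSS under the peak, the second, 4.44 kb into the gene, had the edge of a peak 1.35 kb away, and the third, 295 kb into the gene, had none within 100 kb. The 5 promoters each of *Irf8* and *Erg*, the 3 each of *Runx1* and *Ikzf1*, the 2 of *Spi1* and the 1 of *Cebpe* had no H3K27me3 peak within 5 kb in either genotype or fraction.

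**Figure D2:**
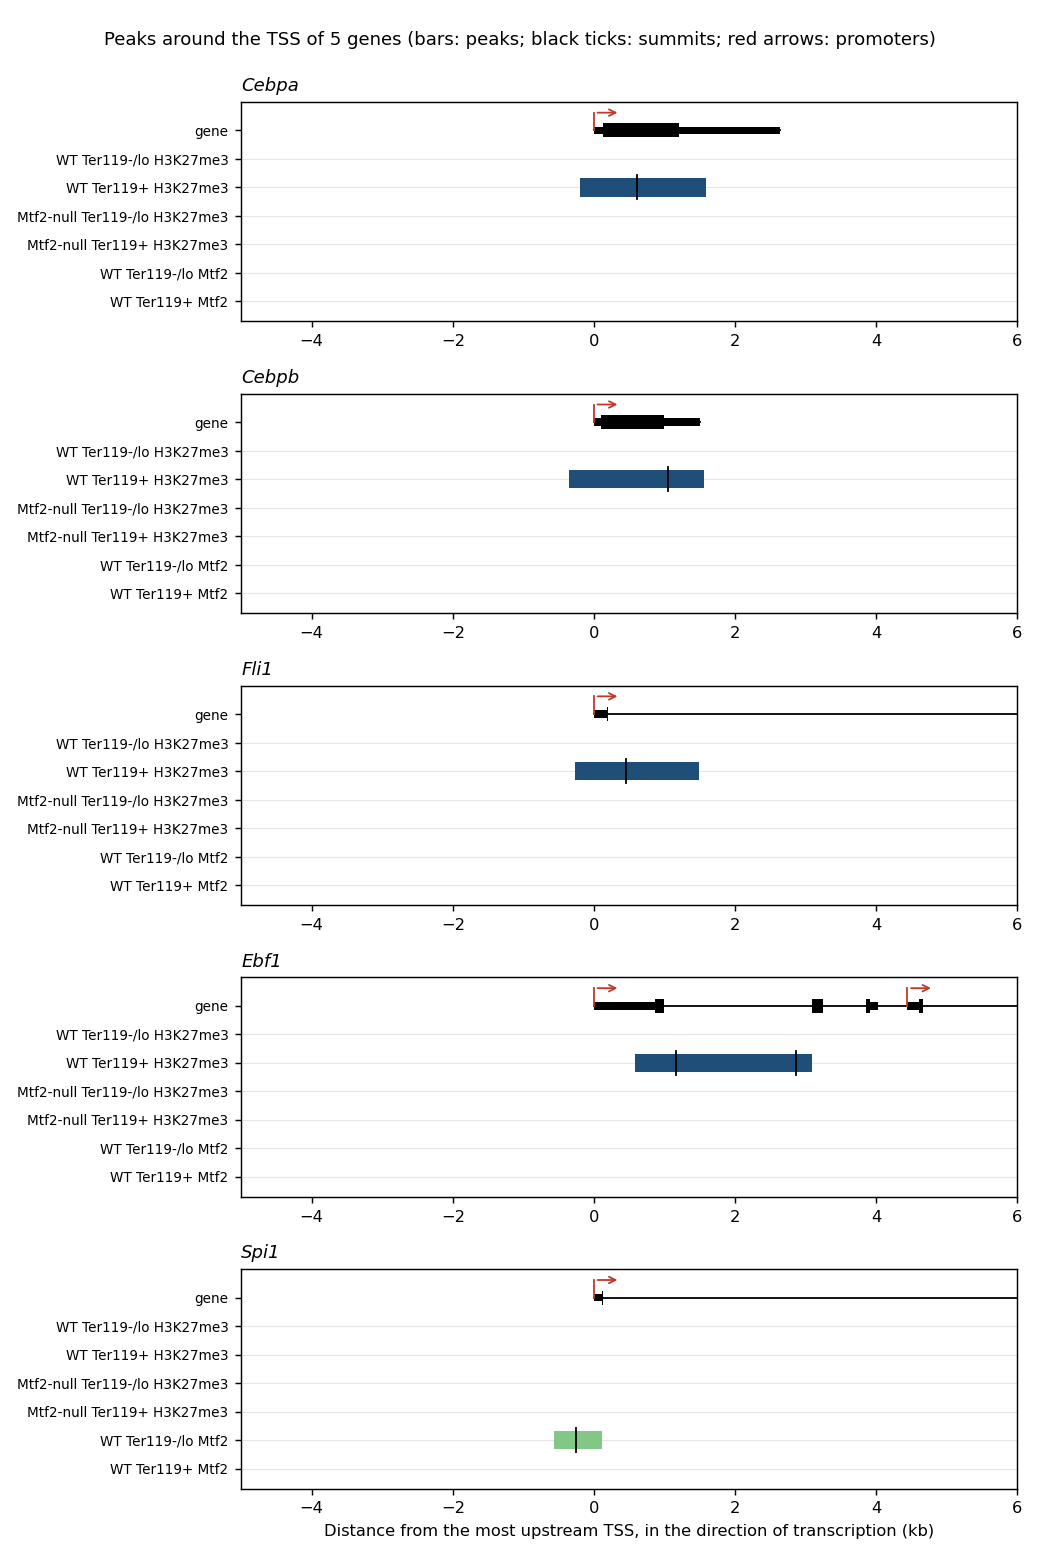
Peaks of the 6 lists (bars, with black ticks at summits) are drawn from 5 kb upstream to 6 kb downstream of the most upstream TSS of 5 genes, with exons as boxes, coding parts taller, and promoters as red arrows. The bars at *Cebpa*, *Cebpb*, *Fli1* and *Ebf1* are all in the WT CD71+Ter119+ H3K27me3 row, and the bar at *Spi1* is in the WT CD71+Ter119-/lo Mtf2 row.

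The 4 promoter peaks were alike in size. Scaled to 1000000 unique tags of the library they held 3.16 (95% Poisson interval 2.56 to 3.86) at *Cebpb*, 2.63 (2.08 to 3.28) at *Cebpa*, 2.53 (1.99 to 3.17) at *Fli1* and 2.10 (1.61 to 2.68) at the first *Ebf1* peak. Each neighbouring pair in this order overlapped in its intervals, and so did the first and the last. The intervals cover counting error only, because amplified tags are not independent molecules. By score they stood between the 56.8 percentile (*Fli1*) and the 94.7 percentile (*Cebpb*) of their list.

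The depth of the other libraries was set beside these counts. At the same share of unique tags, the *Cebpa* peak would hold 49.8 tags in the WT CD71+Ter119-/lo library, 97.3 in the Mtf2-null CD71+Ter119-/lo library and 176.6 in the Mtf2-null CD71+Ter119+ library. The lowest counts among called peaks within 1.2 times its length were 36, 56 and 77 in those lists. For *Cebpb* the scaled counts were 59.9, 117 and 212.3 against lowest counts of 39, 64 and 84, and for *Fli1* 47.9, 93.6 and 169.9 against 35, 56 and 74. The first *Ebf1* peak gave 39.7, 77.6 and 140.8 against 35, 56 and 74. The second gave 16.4 against a lowest count of 16 in WT CD71+Ter119-/lo cells, so its absence there was at the limit of that library. The median counts of peaks of like length in that list were 51 for *Cebpa*, 50 for *Fli1* and 49 for the first *Ebf1* peak, above their scaled counts. For *Cebpb* the median was 54, below its scaled count. In both Mtf2-null lists the scaled counts of all these peaks exceeded the medians. Whether the local IgG background would have let a peak be called at these counts was not tested.

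**Figure D3:**
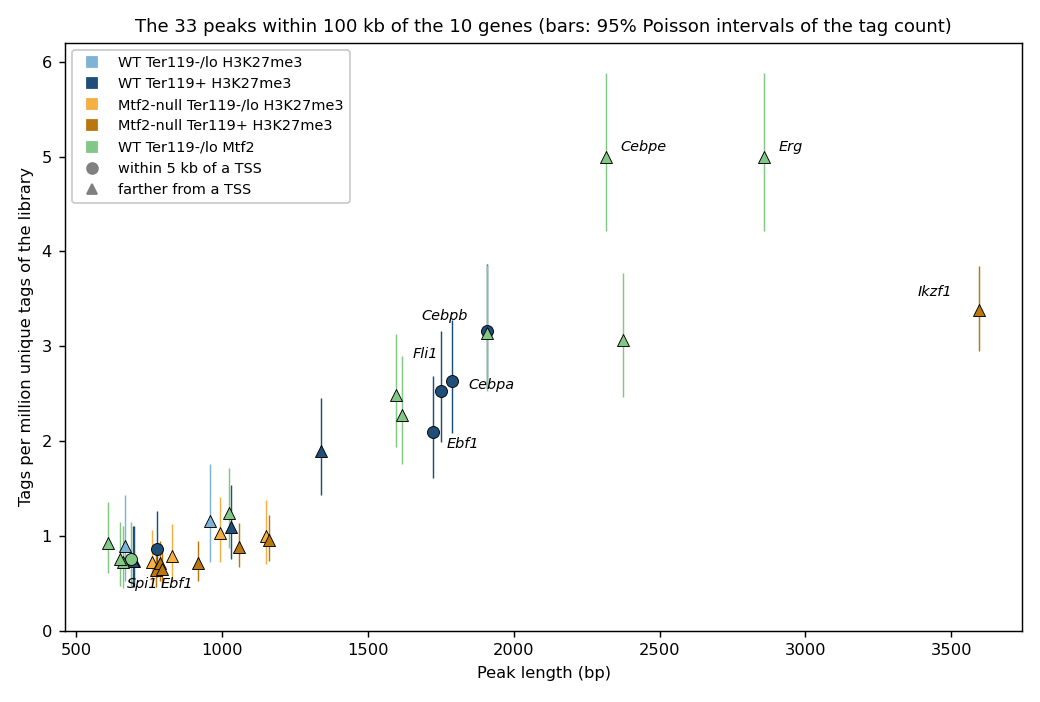
Length in bp (x axis) and tags per 1000000 unique tags of the library (y axis, with 95% Poisson intervals) are plotted for the 33 peaks within 100 kb of the 10 genes, coloured by list, with circles for those within 5 kb of a TSS. The 4 circles at *Cebpa*, *Cebpb*, *Fli1* and the first *Ebf1* peak group between 1722 and 1907 bp and between 2.10 and 3.16 on the y axis, while the *Spi1* circle and the second *Ebf1* circle lie below 1.

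The marked promoters were mostly of the CpG island kind, here taken as a GC content of 50% or more together with a CpG ratio (CpG observed over that expected from the base counts) of 0.6 or more, in 1 kb around the first TSS of the promoter. *Cebpb* had 75.8% GC and a CpG ratio of 1.01, *Cebpa* 68.8% and 0.89, and *Fli1* 60.9% and 0.74. *Ebf1* fell short at its first TSS with 52.1% and 0.49, although the 1 kb around its main summit had 50.5% and 0.94. Among the 21 promoters without a WT CD71+Ter119+ peak within 1 kb, 2 met both limits. These were the first promoter of *Irf8*, which had 61.4% GC and a ratio of 0.74, nearly the composition of *Fli1*, and the second promoter of *Runx1*, with 62.0% and 0.86. CpG content thus did not separate the marked from the unmarked members fully. Over all annotated TSS, 13.3% of the 27460 that met both limits were marked within 1 kb in WT CD71+Ter119+ cells, against 2.22% of the 42503 others.

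**Figure D4:**
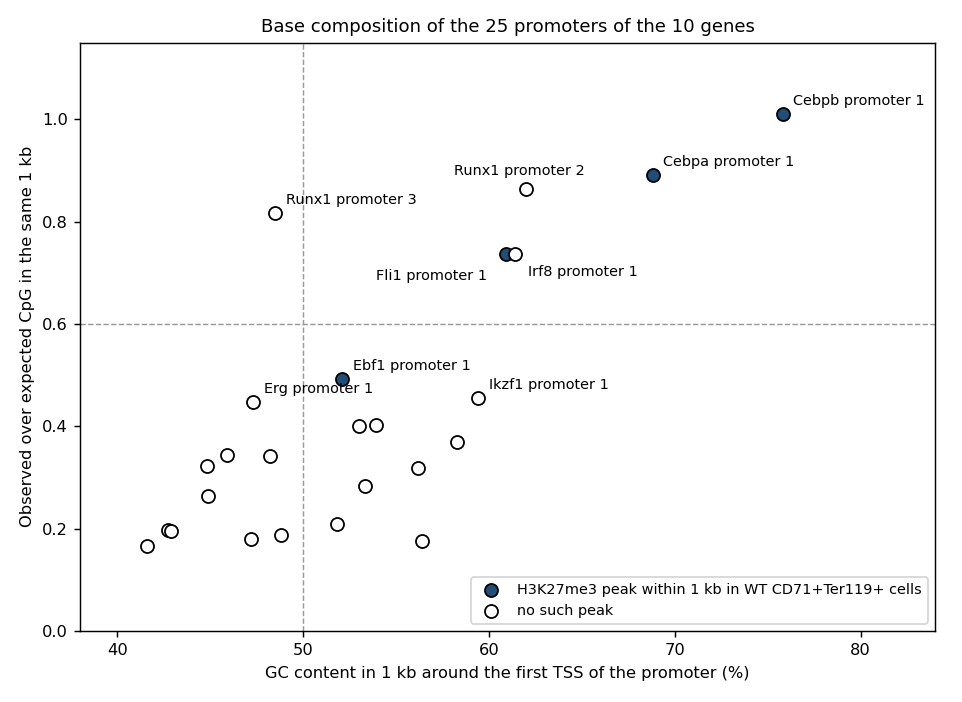
GC content in percent (x axis) and observed over expected CpG (y axis) in 1 kb around the first TSS are plotted for the 25 promoters, filled where WT CD71+Ter119+ cells had an H3K27me3 peak within 1 kb. Of the 5 promoters beyond both dashed limits, *Cebpa*, *Cebpb* and *Fli1* are filled and the first of *Irf8* and the second of *Runx1* are open.

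Base composition also differed between the lists as a whole. The 1 kb around the summit met both limits at 2135 of 4490 peaks (47.6%) in WT CD71+Ter119+ cells, 217 of 4992 (4.35%) in WT CD71+Ter119-/lo cells, 38 of 1407 (2.70%) in Mtf2-null CD71+Ter119-/lo cells and 0 of 5791 in Mtf2-null CD71+Ter119+ cells. The 11 Mtf2-null peaks within 100 kb of the 10 genes had a GC content between 35.8% and 47.5%. The 9 H3K27me3 peaks of WT CD71+Ter119+ cells within 100 kb had 47.0% to 73.8%, so the ranges overlapped at their ends. The 4 promoter peaks among these 9 had 50.5% to 72.2%, but none of the 11 Mtf2-null peaks lay within 5 kb of a TSS, so genotype and position cannot be told apart here. The part of base composition in the absence of Mtf2-null peaks at these promoters was not tested.

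In WT CD71+Ter119-/lo cells, 1 of the 10 genes had an Mtf2 peak in the 5 kb around a TSS (8.44% of all genes), and in WT CD71+Ter119+ cells none had (1.51%). Within 1 kb the counts were again 1 (2.03%) and 0 (0.241%). The gene was *Spi1*, which encodes an ETS factor that opposes the erythroid programme. The peak at chr2:90921975-90922661 was 687 bp long with 22 tags, a fold of 6.98 and an FDR of 0.23%. It covered both TSS of the upstream promoter, with its summit at -253 bp, and ranked 24892 of 28918 by score. The downstream promoter, 13.7 kb further on, had no peak. The DNA under the peak was poor in CpG (ratio 0.15 in 1 kb around the summit), and no H3K27me3 peak lay within 158 kb of a *Spi1* TSS. At *Cebpa*, *Cebpb*, *Ebf1* and *Fli1*, the nearest Mtf2 peak to a TSS lay 588, 163, 29.4 and 230.2 kb away in CD71+Ter119-/lo cells, and 590, 276, 278 and 300 kb away in CD71+Ter119+ cells. In the Mtf2 libraries, 34.6% and 39.7% of tags were unique, against 78.4% to 85.4% in the H3K27me3 libraries.

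*Erg*, the ETS factor required to maintain stem cells, was the only member where a peak of H3K27me3 and a peak of Mtf2 overlapped. In WT CD71+Ter119-/lo cells, an H3K27me3 peak of 959 bp with 22 tags, a fold of 12.8 and an FDR of 10.0% lay in an intron at chr16:95731011-95731969, its summit 14.8 kb downstream of the nearest TSS. It lay entirely inside an Mtf2 peak of 2858 bp at chr16:95730356-95733213, which held 145 tags at a fold of 17.2 and ranked 1476 of 28918 by score. The 2 summits were 1234 bp apart. A second Mtf2 peak of 1598 bp with 72 tags and a fold of 14.6 lay nearer to that TSS, at 8.995 kb. Scaled to 1000000 unique tags, the Mtf2 peak held 4.998 tags (95% Poisson interval 4.22 to 5.88) and the H3K27me3 peak 1.16 (0.73 to 1.76). The peaks differ in length, and per kb of peak the values were 1.75 and 1.21, or 0.60 and 0.98 when scaled to all tags, so their order depended on the scaling. At a score of at least 100, at an FDR of at most 5% or with equal numbers of peaks, the *Erg* H3K27me3 peak and with it the overlap were lost. The 1 kb around the H3K27me3 summit had 62.9% GC and a CpG ratio of 0.64. This DNA is repetitive. In the 300 bases shown around that summit, the stretch from gtgccccagatcaggccCG to cagtctcaagttcCGCG occurs 2 times. A near copy of it lies at the summit of the longer Mtf2 peak. Whether the tags of these peaks belong to this place or to other copies was not tested. In WT CD71+Ter119+ cells the nearest H3K27me3 peak to an *Erg* TSS lay 484 kb away, and the 5 *Erg* promoters had no peak within 5 kb in any list.

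Beyond the promoters, 27 of the 33 member peaks lay farther than 5 kb from a TSS, 9 of them in a gene body and 18 within 100 kb only. The members are long genes, with a median length of 60.6 kb against 15.4 kb for all genes, so that counts over gene bodies and wide windows favour them. In the gene body, WT CD71+Ter119+ H3K27me3 peaks were found at the same 4 genes (11.5% of all genes), WT CD71+Ter119-/lo H3K27me3 at *Erg* (5.01%), Mtf2-null CD71+Ter119-/lo H3K27me3 at *Fli1* and *Erg* (2.37%), Mtf2-null CD71+Ter119+ H3K27me3 at *Runx1* (4.22%), and WT CD71+Ter119-/lo Mtf2 at *Spi1*, *Ebf1*, *Erg* and *Runx1* (14.8%). WT CD71+Ter119+ Mtf2 had none (4.38%). Within 100 kb the counts were 2 (36.5% of all genes) and 4 (44%) in WT CD71+Ter119-/lo and CD71+Ter119+ H3K27me3, 2 (17%) and 5 (31.3%) in the Mtf2-null lists, and 6 (78.3%) and 0 (31.2%) in the Mtf2 lists.

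The Mtf2-null peaks in gene bodies were intronic. At *Fli1*, a peak of 1150 bp with 37 tags and a fold of 11.6 lay 82.7 kb downstream of the TSS in CD71+Ter119-/lo cells, with 46.1% GC and a CpG ratio of 0.06. At *Runx1*, which starts the stem cell programme in the embryo, a peak of 786 bp with 48 tags and a fold of 4.21 lay 40.0 kb downstream of the nearest TSS in CD71+Ter119+ cells. *Erg* had 3 peaks in CD71+Ter119-/lo cells, with 27 to 38 tags, of which 1, of 830 bp and 29 tags, was intronic. The *Fli1* peak and these 3 all had an FDR of 100%. The 300 bases around the 3 *Erg* summits were mostly short TG- or CA-rich repeats with 0 to 2 CpG. Whether tags in such repeats belong to these places was not tested. In the Mtf2 library of WT CD71+Ter119-/lo cells, *Runx1* had an intronic peak of 22 tags between its 2 promoter regions, 17.0 kb upstream of the second promoter, and *Ebf1* had 2 intronic peaks with 27 and 36 tags. None of these intronic peaks lay within 5 kb of a TSS. Past the end of *Ebf1*, an H3K27me3 peak of 33 tags lay at 54.2 kb in WT CD71+Ter119+ cells and an Mtf2 peak of 89 tags at 88.8 kb in WT CD71+Ter119-/lo cells.

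Several of the distant peaks were nearer to another gene. An Mtf2-null CD71+Ter119+ H3K27me3 peak of 59 tags at -83.6 kb from *Erg* was nearest to *Ets2*, and its summit too lay in TG-rich repeats. Of the 4 WT CD71+Ter119+ peaks within 100 kb of *Cebpa*, 2 had their summits nearest to a TSS of *Slc7a10* and 1 nearest to *Lrp3*, whose peak held 57 tags at a fold of 13.5 with 73.8% GC. The WT CD71+Ter119-/lo H3K27me3 peak beyond the end of *Fli1*, with 17 tags and a fold of 11.0, was nearest to *Kcnj1*. *Cebpe*, needed for the last steps of granulocyte maturation, had 3 Mtf2 peaks in CD71+Ter119-/lo cells, 2 of them nearest to *Acin1* (91 tags) and *Slc7a8* (145 tags) and 1 of 21 tags nearest to *Cebpe* at -25.8 kb. *Ikzf1*, which encodes Ikaros, had an Mtf2 peak of 66 tags at -72.7 kb and 2 Mtf2-null CD71+Ter119+ H3K27me3 peaks of 44 and 227 tags, all nearest to 4930512M02Rik. *Irf8*, which directs monocytes and dendritic cells, had 1 peak, of 64 tags in Mtf2-null CD71+Ter119+ cells at -21.8 kb, with 35.8% GC.

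The amplicon that the study designed for ChIP-qPCR at *Cebpa* was located in the genome, to see which part of the peak it reads. The primers tgcccgaccctctataaaagc and ggctccacctcgtagaagtc each matched chromosome 7 once and enclosed 200 bp at chr7:35904270-35904469. The amplicon lay wholly inside the WT CD71+Ter119+ H3K27me3 peak and spanned the TSS, from -42 to 157 bp. It did not contain the summit, which lay 450 bp away. No peak of another list overlapped it.

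The pattern of *Cebpa*, *Cebpb*, *Ebf1* and *Fli1* across the 6 lists, H3K27me3 in WT CD71+Ter119+ cells within 5 kb and nothing else, was shared by 2020 genes (9.03% of all). A pattern with no peak in any list, as at *Cebpe*, *Irf8*, *Erg*, *Runx1* and *Ikzf1*, was shared by 17257 genes (77.2%). A WT CD71+Ter119-/lo Mtf2 peak alone, as at *Spi1*, was found at 1415 genes (6.33%).

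Other blood regulators were set beside the members, from lists chosen with earlier results of these data known. Of 54 genes, 52 were found among the protein-coding genes, and *Cebpd* and *Gfi1* were not analysed here. In WT CD71+Ter119+ cells 27 of the 52 had an H3K27me3 peak within 5 kb of a TSS, against 11.5% of all genes. None of these 27 had one in Mtf2-null CD71+Ter119+ cells. This absence was general, since 2549 of the 2581 genes with such a WT peak had no Mtf2-null one. By family, the counts were as follows. The 1 other C/EBP gene found had no peak. All of *Ebf2*, *Ebf3* and *Ebf4* had a peak, as *Ebf1* did, with 160 tags at *Ebf3* and 140 at *Ebf4*. *Runx2* (108 tags), *Runx3* (100 tags) and their partner *Cbfb* (75 tags) had a peak while *Runx1* had none. Of the other ETS genes 1 of 7 (*Elk3*) had a peak, of the Ikaros family 1 of 4 (*Ikzf3*), and of the Irf family 2 of 4 (*Irf1* and *Irf5*).

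Among the other lineage regulators, 8 of 10 lymphoid factors were marked in WT CD71+Ter119+ cells, where 11.5% of all genes were. They included *Pax5* (93 tags), *Tcf7* (55 tags), *Foxo1* (115 tags) and *Sox4* (38 tags), all at an FDR below 5%. The FDR was higher at *Bcl11a* (26 tags, 21.23%), *Bcl11b* (32 tags, 14.12%), *Gata3* (34 tags, 12.15%) and *Id2* (35 tags, 13.06%). Of 5 myeloid factors 4 were marked (*Klf4*, *Egr1*, *Egr2* and *Nfil3*), of 10 stem and progenitor factors 5 (*Gata2*, *Meis1*, *Mecom*, *Hhex* and *Hmga2*), and of 5 erythroid factors none. At the highest-scoring peak of each gene, the 27 held between 22 and 160 tags with a median of 55, and the 4 members between 63 and 95 with a median of 77.5. The FDR of these peaks ran from 1.82% to 26.19% among the 27 and from 2.09% to 11.58% among the members. A score of at least 100 was reached by 15 of the 27 and by 3 of the 4 members. In WT CD71+Ter119-/lo cells *Egr1* and *Gata2* had an H3K27me3 peak (3.28% of all genes had one). These peaks held 30 and 17 tags at FDRs of 5.26% and 12.31%. *Cbfb* and *Hlf* had an Mtf2 peak there, with 33 and 25 tags (8.44%). *Etv6*, named after its values were seen, had an Mtf2-null CD71+Ter119-/lo H3K27me3 peak of 35 tags (1.27%). None of the 10 members was called in both WT fractions. *Gata2* and *Egr1* were among the 372 genes that were, against 2209 called in CD71+Ter119+ cells only. The places differed, since the *Gata2* peak of CD71+Ter119-/lo cells overlapped none of its CD71+Ter119+ peaks. The *Egr1* peaks of the fractions overlapped only at their edges.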

How the data were processed

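ChIP-seq was performed on sorted E14.5 FL cells, with 6 ChIP and 4 IgG libraries. Reads were aligned to mm9 by the authors (Bowtie2 2.2.3), and MACS 1.3.7 was run per ChIP library with the matching IgG library (same fraction, same genotype) as control. WT H3K27me3 and Mtf2 therefore share an IgG library in each fraction. Its p cutoff was 1e-05 and its band width 300 bp, per the file headers. A masked genome was used and blacklisted regions were taken out, per the labels. The methods state replicates, but whether they were pooled is not given in the sources used here. The design text of the series names another histone mark in its opening line, and the libraries were taken as H3K27me3 from their labels.

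The deposited tag counts are raw numbers of reads per peak. The deposited score is the authors' −10 times log10 of the peak p-value. Fold enrichment, a ratio to the local IgG background, is as deposited. The deposited FDR is a percent from exchanging ChIP and IgG. Unique tags, from the deposited headers, numbered between 15669899 and 67169672 per ChIP library. IgG libraries enter only through these values.

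Genes, TSS and exons came from GENCODE M1 and bases from NCBIM37, the assembly of mm9. A gene had a peak when 1 or more bases of it lay within 5 kb of any TSS. Tags were scaled to 1000000 unique tags, with exact Poisson intervals. Overlap steps were tested on simulated intervals. All 10 genes and every peak within 100 kb are described, and other genes where they are nearest to a summit or in the lists of blood regulators. The members and lists were chosen with earlier results of these data known. The alternatives tried were score and FDR limits (100 or more, 5% or less), windows of 1, 2 and 10 kb, the summit or 50% of the peak in the window, TSS of coding transcripts, and equal numbers of peaks. Tags per kb of peak at *Erg* were added after seeing the data. Steps ran in Python 3.11.15 with pandas 2.3.3, scipy 1.17.1, numpy 2.4.6 and matplotlib 3.10.9. RNA-seq and ChIP-qPCR were not analysed here, and 1 sequence is not reported here.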

Additional observations from a re-analysis of the deposited data

How the results depend on the processing

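The count of 4 members marked by H3K27me3 in WT and not in Mtf2-null CD71+Ter119+ cells stayed at 4 with windows of 1, 2 and 10 kb, with the summit or 50% of the peak in the window and with TSS of coding transcripts. It was 3, without *Fli1*, at a score of at least 100, at an FDR of at most 5% and with the 1407 highest-scoring peaks of each list. The single WT CD71+Ter119-/lo Mtf2 gene within 5 kb, *Spi1*, became 0 genes at a score of at least 100 and with equal numbers of peaks, and 2 with *Erg* in a window of 10 kb. Of the alternatives only the 10 kb window could raise the counts of 0 in the other 4 lists, and they stayed at 0. In the gene body and within 100 kb, 18 counts moved by less than 1.5 times and the rest by more, and the Mtf2-null counts were 0 at a score of at least 100. The WT CD71+Ter119-/lo H3K27me3 peak in *Erg*, and its overlap with Mtf2, were lost with both limits and with equal numbers of peaks. The ratio of tags in the Mtf2 peak of *Erg* to those in the shorter H3K27me3 peak was 4.30 on unique and 1.84 on all tags, and per kb of peak, chosen after seeing the data, 1.44 and 0.62, so its direction turned.

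No paired analysis was possible because each condition had 1 library. The limits on score and FDR do not mean the same in each list. An FDR of at most 5% removed all Mtf2-null CD71+Ter119-/lo peaks and kept all 5791 of Mtf2-null CD71+Ter119+ cells. Absence of a peak is absence of a call at the depth of that library and its IgG control.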
